A study of Mus musculus with 3 samples.

Results

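The transcripts described here are 10 that a growing mouse oocyte makes and stores: the secreted factors Gdf9, Bmp15, Oosp1 and Plat, the zona pellucida proteins Zp1, Zp2 and Zp3, the receptor Kit, and the transcription factors Figla and Nobox. They were found by the gene symbol that the array files give each probe. Of the 10 genes, 9 had a probe under their own symbol, with 14 probes in all among 41174 on the array. They were measured in four-cell mouse embryos on 3 two-colour Agilent arrays. On each array the Cy5 channel held RNA of a pool whose oocytes had been put under high hydrostatic pressure (HP) before fertilisation, at 20 MPa for 60 min and 37 °C. The Cy3 channel held RNA of a control pool, whose oocytes were handled alike without pressure. The HP pools held 44, 30 and 37 embryos in replicates 1, 2 and 3, and the control pools held 36, 33 and 24. Per the sample labels, oocytes of both groups were fertilised by intracytoplasmic sperm injection, although the series title speaks of in vitro fertilisation. Strain, genotype and age of the mice are not given in the sources used here. Because HP was in Cy5 and control in Cy3 on every array, dye effects and pressure effects cannot be told apart.

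A growing oocyte transcribes its maternal messages, stores many of them without a full poly(A) tail, and then falls silent as it matures. After fertilisation most maternal messages are cleared while the embryo switches on its own genome. GDF9 and BMP15 are TGF-beta family ligands that the oocyte sends to the surrounding granulosa and cumulus cells. ZP1, ZP2 and ZP3 are glycoproteins of the zona pellucida, the coat that sperm bind and cross. OOSP1 is a small oocyte secreted protein. KIT is the receptor tyrosine kinase for KIT ligand made by granulosa cells. PLAT is tissue plasminogen activator, whose stored message is a classic case of translation switched on by polyadenylation at maturation. FIGLA, a basic helix-loop-helix protein, and NOBOX, a homeobox protein, drive oocyte genes, with the zona genes known targets of FIGLA and Gdf9 a known target of NOBOX. In pooled embryos, fewer copies per embryo and fewer embryos with the transcript cannot be told apart.

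Each probe is a 60-base oligonucleotide, and a spot reports only on its own stretch of the transcript. The following 30-base stretches of the probes that carried the results are shown because the reading of each gene rests on that place alone. They are copied from the array files and given in the sense of the transcript. For Oosp1 and Zp3, each with a pair of probes, the first 30 bases that both probes share are shown in capitals. For the others the first 30 bases of the probe are in lower case.
Gdf9: acagatttgttagcataagtctcgagtaga
Bmp15: atgtggatctattccttagcatcattttgc
Kit: tgtggtcatgtacgagactgtcaccagtta
Oosp1: CATGGATCAAAACTTCTCGGTTTTCCATTT
Zp3: GCTGATGTCACTGTAGGGCCCCTGATATTC
In the mm7 mouse assembly used by the files, the Gdf9 probe lies at chr11:53394562-53394621 on the plus strand. The Bmp15 probe lies at chrX:4788993-4789052 on the minus strand and the Kit probe at chr5:75074515-75074574 on the plus strand. The Oosp1 probes lie at chr19:11347806-11347865 and chr19:11347796-11347855 on the minus strand and share 50 of their 60 bases. The Zp3 probes share 30 bases, at chr5:134958870-134959720 and chr5:134959691-134959750 on the plus strand. The first of these spans 851 bases of the genome for 60 bases of probe, so it crosses an intron. The array files do not say whether a probe is in coding sequence or in a UTR.

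Signals are given below as the mean of the spot minus the median of its local background, in scanner units. The scanner software called each spot well above background or not, and a probe was tested when 2 or more of the 3 arrays had that call in 1 and the same channel. Of the 14 probes, 7 met that filter (50%), against 20.9% of all probes, and they belonged to Gdf9, Bmp15, Oosp1, Zp3 and Kit. Over the whole array, 17.5% to 19.9% of spots were well above background in the HP pools and 18.5% to 23.2% in the control pools. A total of 5 of the 14 probes were above background in all 6 pools, against 12.1% of all probes. These were the Gdf9 probe and both probes of Oosp1 and of Zp3. Another 5 were below it in all 6 pools: both Zp2 probes, 2 of the 3 Plat probes and the Figla probe. Over the array, 68.1% of all probes were below background in all 6 pools. A control signal and an HP signal come from different dyes, so their raw values were not compared. Groups were compared as loess-normalised log2 ratios of HP over control, and pools as normalised log2 levels. On both scales each group still had its own dye. Signals of different probes depend on the probe and were not ranked against each other.

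**Figure D1:**
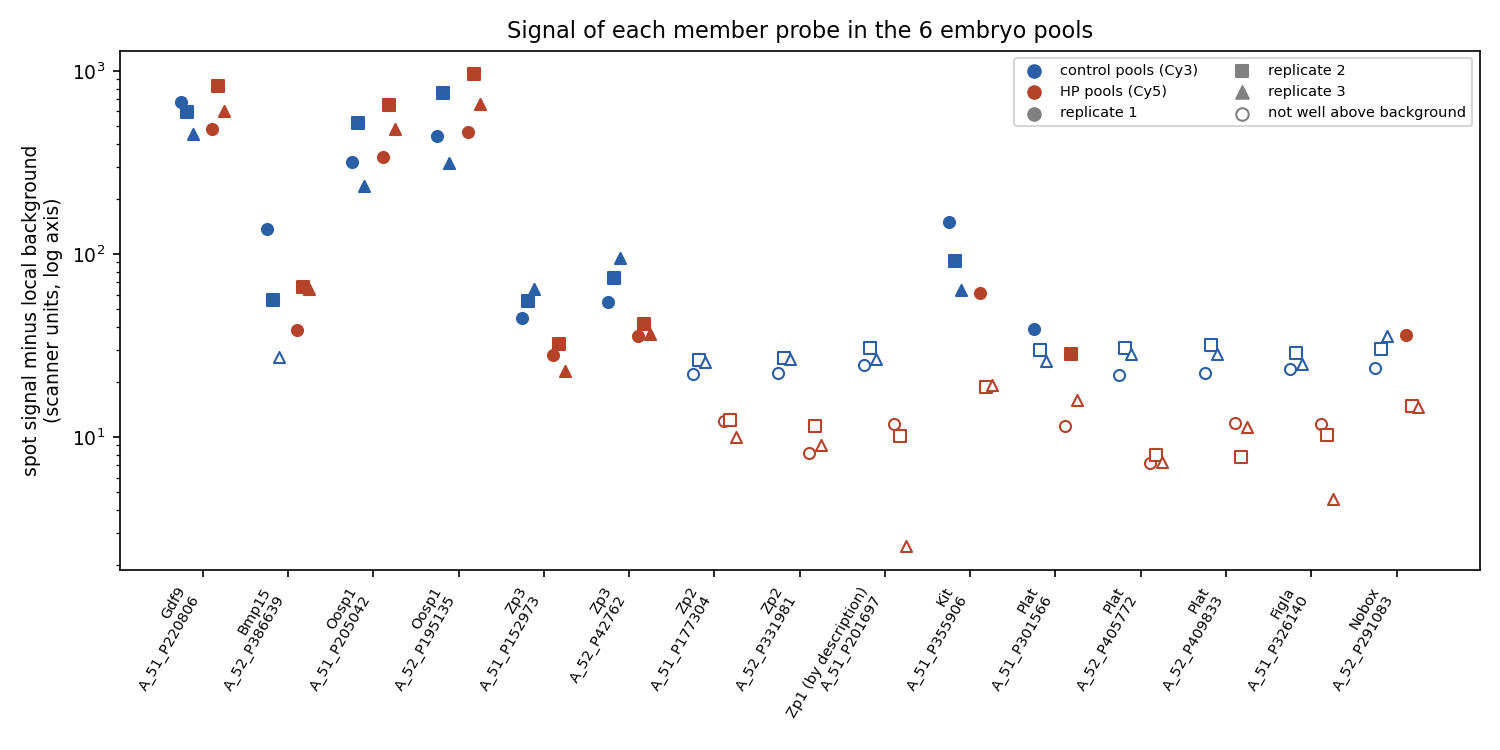
Spot signal minus local background (scanner units, log axis) of each probe in the 3 control pools (blue, Cy3) and the 3 HP pools (red, Cy5), with filled symbols for pools well above background. The Gdf9 and both Oosp1 probes are filled in all 6 pools, while both Zp2 probes, the Figla probe and the probe described as Zp1 are hollow in all 6.

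With 3 arrays, no probe and no gene of the whole array passed a Benjamini-Hochberg adjusted p of 0.05 in limma (0 of 8590 probes, 0%, and 0 of 7254 genes). The lowest adjusted limma p was 0.177 over probes and 0.174 over genes. At an unadjusted limma p under 0.05, 526 genes (7.25%) were higher and 816 (11.2%) were lower in HP. The counts over probes were 7.01% higher and 10.8% lower. Of the 7 tested probes of the oocyte genes, 3 were higher at that unadjusted limit and 0 were lower. Those 3 were the Gdf9 probe and both Oosp1 probes, which overlap and count as 1 measurement. They were also the probes higher on all 3 arrays, a pattern found in 22.6% of all tested probes. The Kit probe was lower on all 3 arrays, as were 24.9% of all tested probes. The median log2 ratio of the 7 probes was 0.23, beside -0.02 for all tested probes. An exact sign-flip permutation test of 3 arrays cannot give a two-sided p below 0.25.

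The message of Oosp1, the oocyte secreted protein, gave the largest HP-over-control ratio among the 5 tested genes. The signal of probe A_52_P195135 was 465, 957 and 659 in HP replicates 1, 2 and 3. In control replicates 1, 2 and 3 it was 439, 759 and 313. The log2 ratio was 0.70, 1.40 and 1.76 on arrays 1, 2 and 3. All 3 arrays were above 0, with array 1 the lowest, and after normalisation every HP pool lay above every control pool, as for 12.9% of tested probes. The mean log2 ratio was 1.29 ± 0.24 (moderated SE, n = 3), 2.44-fold higher in HP, with a limma p of 0.00568 and an adjusted p of 0.176 over genes. The other Oosp1 probe, A_51_P205042, had signals of 338, 648 and 484 in HP pools and 319, 520 and 234 in control pools. Its log2 ratios were 0.68, 1.31 and 1.66, with a mean of 1.22 ± 0.22 (2.33-fold). On no array did the ratios of these overlapping probes differ by more than 0.097. The normalised log2 levels of A_52_P195135 were 9.39, 10.26 and 10.09 in HP and 8.68, 8.85 and 8.33 in control. Centring each array on its median in place of the loess curve left an Oosp1 ratio of 0.44.

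Gdf9, the ligand that drives cumulus expansion, was next. Its probe A_51_P220806 read 484, 828 and 606 in HP replicates 1, 2 and 3. The control pools read 674, 598 and 450.3. The log2 ratios were 0.20, 1.49 and 1.21, so array 1 stood near 0 and arrays 2 and 3 were far above it. Normalised log2 levels ran from 9.45 to 10.02 in HP and from 8.53 to 9.25 in control. Every HP pool thus lay above every control pool, as for 12.9% of tested probes. The mean was 0.97 ± 0.29 (moderated SE, n = 3), 1.96-fold higher in HP, with a limma p of 0.0294 and an adjusted p of 0.231 over genes. Without replicate 1 the ratio was 1.35, and it missed the unadjusted limit in limma without replicate 2 (0.71) or replicate 3 (0.85). With median centring it was 0.12, with -0.37, 0.38 and 0.35 on arrays 1, 2 and 3, so array 1 was then below 0.

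Bmp15, the partner ligand of Gdf9, was near the detection limit and had no common direction. The signal of probe A_52_P386639 was 38.6, 65.8 and 64.2 in HP replicates 1, 2 and 3, above background in all 3. In control replicates 1, 2 and 3 it was 137, 55.9 and 27.3, and replicates 1 and 2 were above background. The log2 ratio was -0.59 on array 1 and 0.65 and 0.61 on arrays 2 and 3. On the normalised scale the HP pools were within 0.19 of each other, while the control pools ranged over 1.16, with control replicate 1 the highest of the 6 pools. The groups overlapped, and the mean ratio of 0.23 ± 0.30 had a limma p of 0.498 (adjusted p of 0.693). Without replicate 1, the mean was 0.63 with an adjusted limma p of 0.112.

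The arrays also differed from each other over all genes, and array 1 stood apart there as it did for Gdf9 and Bmp15. Over all tested genes, the log2 ratios of arrays 2 and 3 correlated at Pearson r = 0.65, and those of array 1 correlated at 0.23 and 0.22 with them. Genes are not independent replicates, so these values only describe the arrays. The normalised levels of HP replicates 2 and 3 differed with an SD of 0.231 over genes, against 0.463 to 0.642 for every other pair of pools. When replicates 2 and 3 were counted as 1, the Oosp1 ratio was 1.14 and the Gdf9 ratio was 0.78, the latter no longer at the unadjusted limit. The part of this similarity in the ratios of the oocyte genes was not tested.

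**Figure D2:**
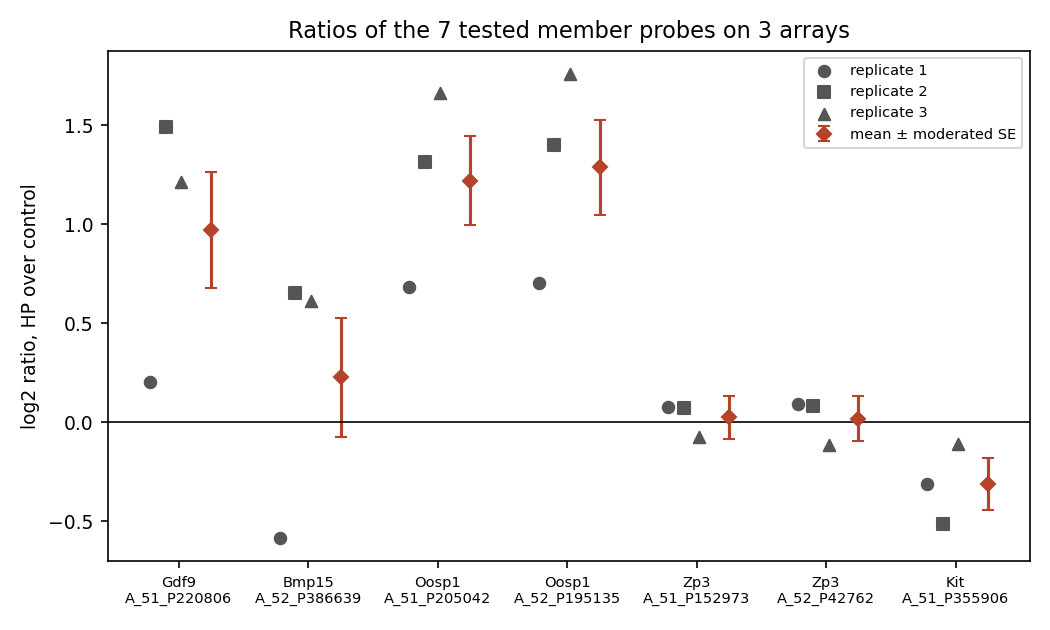
Log2 ratio of HP over control for the 7 tested probes on each of the 3 arrays (grey symbols), with the mean and its moderated SE (red, n = 3). Both Oosp1 probes and the Gdf9 probe are above 0 on every array, Kit is below 0 on every array, Bmp15 falls on both sides, and both Zp3 probes stay close to 0.

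Among the zona genes, Zp3, the glycoprotein long studied as a sperm receptor, was the one above background in all 6 pools. For probe A_52_P42762 the HP signals were 35.5, 41.2 and 36.5 in replicates 1, 2 and 3. The control signals were 54.8, 74.0 and 94.5. The log2 ratios were 0.09, 0.08 and -0.12, which lie on both sides of 0, and the groups overlapped. The mean was 0.02 ± 0.11 (moderated SE, n = 3; adjusted limma p of 0.940 over genes). The overlapping probe A_51_P152973 gave 0.07, 0.07 and -0.08, at most 0.042 from the other on any array. A ratio this close to 0 also changed sign with the arrays used: it was -0.019 without replicate 1 and -0.014 without replicate 2. With median centring it was -0.28, where the median of the tested genes was -0.39.

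Zp2, the zona protein cleaved after fertilisation, was not well above background in any pool. Probe A_51_P177304 read 12.2, 12.4 and 9.98 in HP and 22.0, 26.4 and 25.8 in control, and probe A_52_P331981 read 8.15, 11.5 and 9.03 in HP and 22.4, 27.1 and 26.8 in control. With both groups below background, no fold is given. Both Zp2 probes span more of the mm7 genome than their length, at chr7:116058035-116058182 and chr7:116057838-116057994 on the minus strand. Zp1, which cross-links zona filaments, had no probe under its symbol. One probe chosen after its description was read, A_51_P201697 at chr19:10596616-10596675 on the minus strand, is described in the files as Zp1. It read 11.8, 10.1 and 2.52 in HP and 24.7, 30.6 and 26.8 in control, below background in all 6 pools.

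Kit, the receptor, was the 1 tested gene of the 5 with a ratio below 0 on all 3 arrays. Its probe A_51_P355906 is printed as 10 spots, whose mean signals were 61.0, 18.8 and 19.1 in HP replicates 1, 2 and 3. In control replicates 1, 2 and 3 the means were 149, 91.8 and 63.2, all 3 above background. In the HP pools only replicate 1 was, with 10 of 10 spots called there, 1 of 10 in replicate 2 and 2 of 10 in replicate 3. The probe thus met the filter through the control channel alone, a way in that favours ratios below 0. The log2 ratios were -0.31, -0.51 and -0.11. Both groups were widely spread, from 6.42 to 7.21 in HP and from 6.70 to 7.53 in control on the normalised scale, and they overlapped. The mean log2 ratio of -0.31 ± 0.13 (moderated SE, n = 3) had a limma p of 0.0748 and an adjusted p of 0.307 over genes. Its size moved with the background treatment, to -0.60 with a normexp offset of 0 in place of 50 and to -1.23 in the scanner software's ratio, so no fold is given. The spots measure the precision of printing and hybridisation: their SD was 0.076, 0.074 and 0.052 on arrays 1, 2 and 3, and all 10 spots were below 0 on each array. Those spots are 1 measurement per array, not replicates of the embryos.

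**Figure D3:**
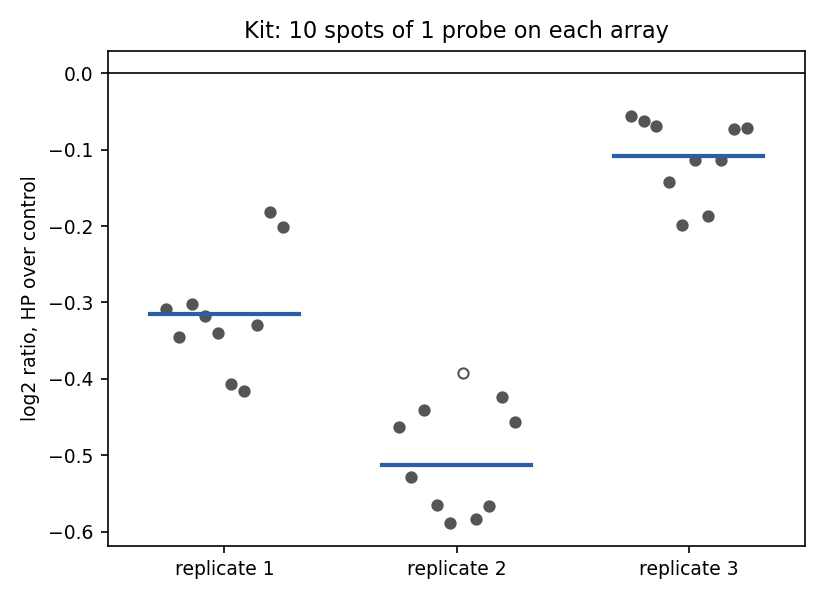
Log2 ratio of HP over control for each of the 10 Kit spots on the 3 arrays, with the mean of the spots kept as a blue line and 1 spot left out as an outlier drawn hollow. All spots are below 0, and arrays 1, 2 and 3 have means of -0.31, -0.51 and -0.11.

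Plat, the plasminogen activator, was above background in 1 HP pool and 1 control pool with 1 of its 3 probes. Probe A_51_P301566 (chr8:21567937-21567997 on the plus strand) read 11.5, 28.5 and 15.9 in HP replicates 1, 2 and 3. It read 39.1, 30.0 and 26.0 in the controls. HP replicate 2 and control replicate 1 were the 2 above background, and with log2 ratios of -0.22, 0.30 and 0.07 the probe was not tested. The probes A_52_P405772 and A_52_P409833, at chr8:21561146-21561205 and chr8:21567376-21567435, were above background in no pool, with HP signals from 7.18 to 11.9 and control signals from 21.7 to 31.9.

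The 2 transcription factors were hardly seen. The Figla probe A_51_P326140, at chr6:86095987-86096046 on the plus strand, read 11.8, 10.2 and 4.58 in HP and 23.6, 28.9 and 25.2 in control, below background in all 6 pools. The Nobox probe A_52_P291083, at chr6:43345260-43345319 on the minus strand, read 36.2, 14.7 and 14.7 in HP replicates 1, 2 and 3. It read 23.8, 30.4 and 35.6 in control. HP replicate 1 was the 1 pool above background, so the probe was not tested. Its log2 ratio was 0.55 on array 1, where that pool was hybridised, and 0.025 and 0.0072 on arrays 2 and 3, where neither channel was above background.

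**Figure D4:**
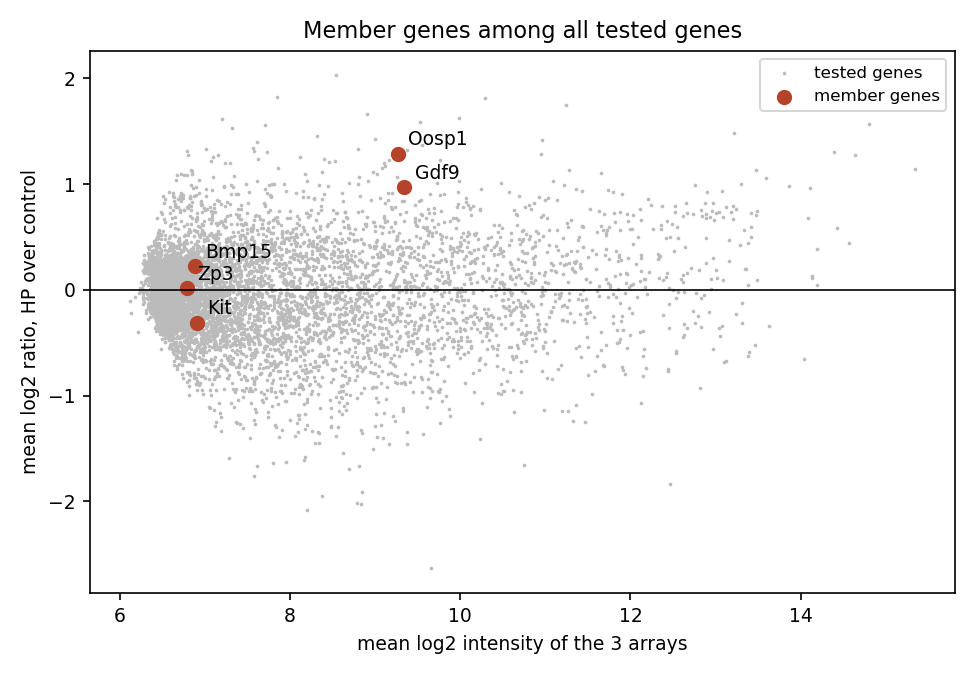
Mean log2 ratio of HP over control against mean log2 intensity for all 7254 tested genes (grey), with the 5 tested oocyte genes in red. Oosp1 and Gdf9 lie in the upper part of the cloud, and Bmp15, Zp3 and Kit lie within it at low intensity.

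The likeness of each gene to the rest of the array was measured as the root mean square difference of the 3 log2 ratios, over 7245 genes. Closest to Gdf9 were Csnk1g3 (0.12) and Zscan4c (0.134), the latter a gene that early mouse embryos switch on, and 8 genes were within 0.2. Closest to Oosp1 were the transcript listed as ENSMUST00000082421 (0.0224) and Ppip5k2 (0.086), with 8 genes within 0.2. For Bmp15, Zfp410 (0.0248) and Slain1 (0.0405) were closest among 43. Kit had 537 such genes, led by 1700029P11Rik (0.0356) and Tspan17 (0.0361). Zp3, with its ratios near 0, had 1500, led by Eed (0.033) and Foxp4 (0.0348). Most genes have ratios near 0, so these counts follow from the size of a gene's ratios and do not show how common a pattern is.

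The genes around these oocyte factors were also read, as lists of pathway members. Of 27 GDF9 and BMP15 signalling genes, 12 were tested and 13 were below background in all 6 pools, among them the type I receptor Bmpr1b. Of all genes on the array, 61.9% were below background in all 6 pools. At an unadjusted limma p under 0.05, 1 of the 12 was higher and 1 lower, where 7.25% and 11.2% of all tested genes were, and the median log2 ratio was 0.10 beside -0.01 for all tested genes. Bmpr1a, a type I receptor for BMP ligands, had log2 ratios of -1.19, -0.43 and -0.90 on arrays 1, 2 and 3, all below 0 (mean -0.84 ± 0.19, adjusted limma p of 0.189). Id1, a target of BMP signalling, had ratios of 0.46, 0.30 and 0.36, all above 0 (mean 0.37 ± 0.11, adjusted limma p of 0.223). Of 19 KIT signalling genes, 14 were tested, with a median of -0.04, and again 1 was higher and 1 lower at the unadjusted limit, a share close to that of all tested genes. Ptpn11, the phosphatase SHP2, had ratios of 0.18, 1.79 and 1.35, with array 1 lowest (mean 1.11 ± 0.35, adjusted limma p of 0.243). Tsc1, a brake on mTOR, had ratios of -1.30, -0.72 and -0.39 (mean -0.81 ± 0.21, adjusted limma p of 0.204). It was above background in 3 control pools and no HP pool, so no fold is given.

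Of 11 genes listed for plasminogen activation, 3 were tested, none at the unadjusted limit, with a median of -0.06. That median was the ratio of Cpeb1, which is also in the list for storage and tail length of maternal messages. The others tested were S100a10 (0.02) and Plaur (-0.09). Plg, the gene of the substrate plasminogen, was below background in all pools. Of 14 genes listed for the egg coat and egg surface, 12 were on the array and 4 were tested, with a median of 0.24 over those 4. The median fell between Uchl1 (0.21) and Ovgp1 (0.27), and Ovgp1 was above background in 2 HP pools and no control pool. Cd9, the egg tetraspanin needed for fusion with sperm, had log2 ratios of -0.18, -1.32 and -0.90 (mean -0.80 ± 0.25, adjusted limma p of 0.243). Its relative Cd81 had 0.31, 1.29 and 0.62 (mean 0.74 ± 0.23, adjusted limma p of 0.234) and was above background in 1 of 3 control pools. Cd81 thus met the filter through the HP channel alone, a way in that favours ratios above 0. The ratios of Cd9 and Cd81 lay on opposite sides of 0 on every array.

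Of 14 oocyte transcription factor genes on the array, besides Figla and Nobox, 9 were tested, with a median of 0.09. At the unadjusted limit 1 of the 9 was higher and 1 lower, where 7.25% and 11.2% of all tested genes were. Stat3 was the higher one, with ratios of 0.48, 0.42 and 0.30 (adjusted limma p of 0.211). Taf4b, a TFIID subunit of oocytes, was lower, with -0.47, -0.62 and -0.12 (adjusted limma p of 0.270). It was above background in 3 control pools and 1 HP pool, so it met the filter through the control channel alone. Of 12 genes for the storage and tail length of maternal messages, 7 were tested with a median of 0.10, 2 higher and 0 lower at that limit, where 7.25% and 11.2% of all tested genes were. Btg4, an adaptor that brings the CCR4-NOT deadenylase to maternal messages, had ratios of 0.87, 0.64 and 0.53 (mean 0.68 ± 0.12, adjusted limma p of 0.176). Cnot6l, a catalytic subunit of that complex, had 0.78, 1.27 and 0.50 (mean 0.85 ± 0.19, adjusted limma p of 0.189). Cnot7, another catalytic subunit, was below background in all 6 pools. No gene of any list passed an adjusted p of 0.05.

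Markers of the embryo, of follicle cells and of sperm were also read, and no stage was assigned from them. Of 11 embryo markers, 7 were tested. Dppa3, Hdac1, Klf5 and Eif1a were above background in all 6 pools, and Nanog and Sox2 were below background in every pool. Zscan4c was the 1 embryo marker at the unadjusted limit, with log2 ratios of 0.22, 1.27 and 1.27 (mean 0.92 ± 0.27, adjusted limma p of 0.226), and it was above background in 1 of 3 control pools. Zscan4c thus met the filter through the HP channel alone, a way in that favours ratios above 0. Its part in the Gdf9 ratio, which was likewise lowest on array 1, was not tested. Of 15 cumulus and granulosa markers, which would mark adhering follicle cells, 11 were below background in all 6 pools, including Fshr, Amh and Cyp19a1. The share over all genes on the array was 61.9%. Ptx3 and Cyp11a1 were above background in some pool but did not meet the filter. The 2 tested were Kitl (-0.10) and Nr5a2 (-0.48), the latter also expressed by early embryos, and neither reached the unadjusted limit. Kitl was above background in 2 control pools and no HP pool. Of 8 sperm markers, 6 were below background in all pools, beside the same 61.9% of all genes. Prm2 was above background in some pool but did not meet the filter. Prm1, the 1 tested, had a log2 ratio of -0.04.

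**Figure D5:**
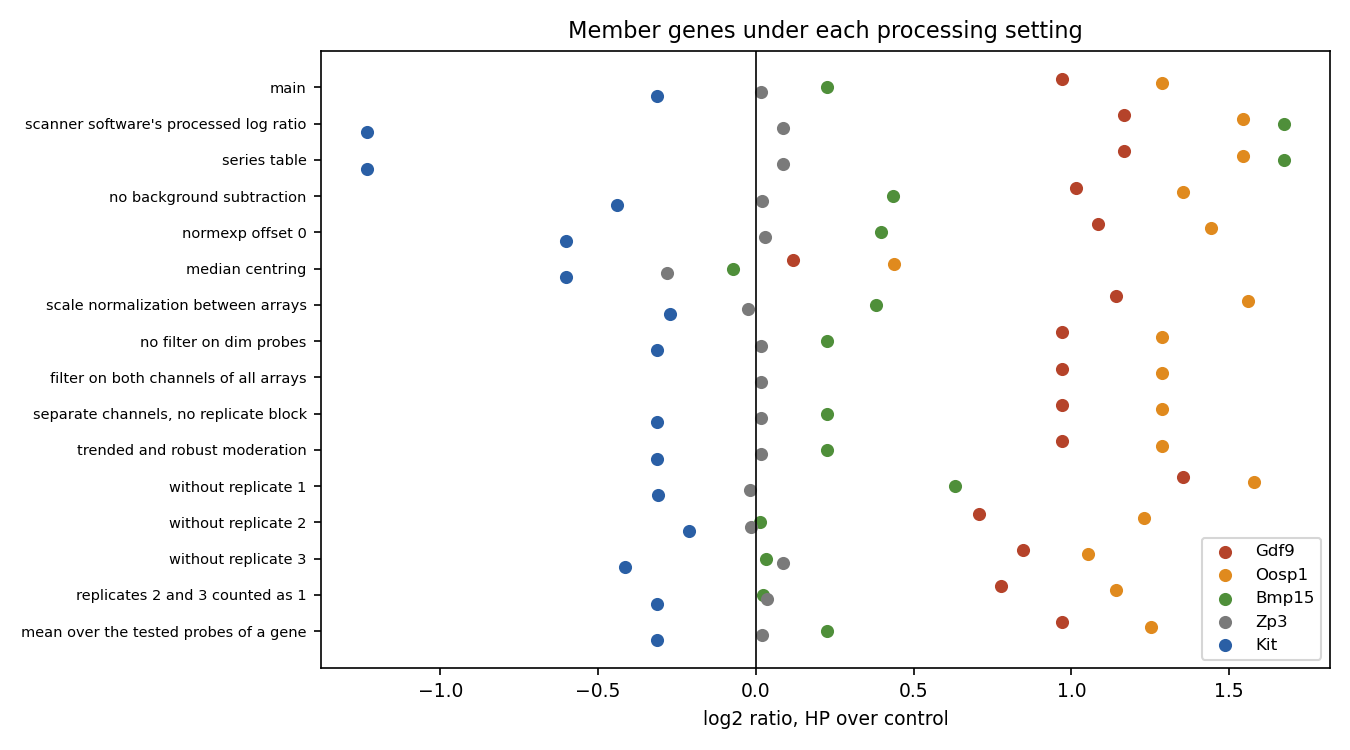
Mean log2 ratio of HP over control of the 5 tested genes under the main processing and each alternative, 1 row per setting. Gdf9 and Oosp1 stay above 0 and Kit stays below 0 in every row that has them, and median centring moves all 5 downward.

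Promoter sequences of the measured genes are shown for Oosp1 and Zp3, which had the ratios farthest from and closest to 0, Zp3 being a known target of FIGLA. They are 250 bases before the start of the gene, from RefSeq on GRCm38.p6, at chr19:11691052-11691301 (minus strand) and chr5:135979855-135980104 (plus strand). Capitals mark each CANNTG, the E-box core that basic helix-loop-helix proteins read on both strands alike.
Oosp1: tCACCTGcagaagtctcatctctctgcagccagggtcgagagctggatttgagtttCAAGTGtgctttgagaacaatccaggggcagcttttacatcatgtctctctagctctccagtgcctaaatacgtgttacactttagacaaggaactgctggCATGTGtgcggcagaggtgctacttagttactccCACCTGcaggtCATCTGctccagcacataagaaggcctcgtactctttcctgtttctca
Zp3: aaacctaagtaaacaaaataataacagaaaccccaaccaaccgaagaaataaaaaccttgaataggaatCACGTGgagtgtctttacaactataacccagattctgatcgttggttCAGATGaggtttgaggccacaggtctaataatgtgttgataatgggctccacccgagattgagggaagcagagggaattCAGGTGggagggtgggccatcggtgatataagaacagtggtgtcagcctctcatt
The Oosp1 window holds 5 E-boxes and the Zp3 window 3. Of all 32851 promoter windows of this length, 66.2% hold at least 1, with a median of 1. The narrower form CACCTG or CAGGTG (the same letters on the opposite strand, each also a CANNTG) is in 17.2% of all windows and in both of these. The homeobox sequence TAATTG or CAATTA is in 7.17% of windows and in neither. Other and shorter homeobox sequences were not searched. Promoter windows of Bmp15, Figla, Nobox and Kit were searched too and hold 1, 2, 2 and 0 E-boxes. A match is a description of the letters, and the arrays measured no binding.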

How the data were processed

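RNA of 6 pools of mouse four-cell embryos was measured on 3 arrays of 1 slide and 1 scan time. Per the labels, 240 pg of total RNA per pool was amplified in rounds before labelling, which can widen differences of scarce messages. Per the file headers, Agilent Feature Extraction 9.5.1.1 quantified the scans on an array design with mm7 coordinates. The deposited mean and background signals are intensity values without background subtraction. Background-subtracted, dye-normalized intensity is deposited as processed signal, and its deposited ratio is log10 of Cy5 over Cy3. The authors' series table holds those log10 values, within 5e-10.

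Values were read from the mean signal with limma 3.58.1 (R 4.3.3), corrected with normexp (offset 50) and normalized by loess within each array, with control spots at weight 0. Spots called outliers (208, 172 and 325 on replicates 1, 2 and 3) were left out, and no spot was saturated. Spots of a probe were averaged. The brightest tested probe stood for a gene. An intercept was fitted over the 3 arrays and p-values were adjusted by Benjamini-Hochberg over all tested features. The fit was tested on simulated data with independent arrays. That test did not cover arrays that resemble each other, as arrays 2 and 3 did. Since each array is a pair of equal replicate number, the array is the block. For levels per pool, the mean log2 intensity of both channels was quantile-scaled between arrays, which left each ratio unchanged. Probe names were updated through RefSeq (22951 by accession, 6659 by symbol, 3109 by synonym, 8455 kept). Replicates are separate pools, per the labels. The number of arrays limits the precision.

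The genes and lists were chosen with earlier results of these data known. All probes under a listed symbol are given, with up to 3 further genes per list and direction by smallest p and the 2 genes nearest in their ratios. Alternatives changed the background correction, normalization, filter, moderation, channel model and the arrays used. Matching the probes to protein sequence was not done here.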

Additional observations from a re-analysis of the deposited data

How the results depend on the processing

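Over 15 alternatives, the Gdf9 ratio ran from 0.12 to 1.35 (adjusted limma p from 0.0791 to 0.716) and that of Oosp1 from 0.44 to 1.58 (lowest adjusted p 0.0791). Kit ran from -1.23 to -0.21 over 14 (0.081 to 0.732). The mean ratios of these 3 kept their direction, though Gdf9 on array 1 was below 0 with median centring. None of the 5 tested genes passed an adjusted p of 0.05 in any alternative. Bmp15 ran from -0.073 to 1.67, where -0.073 came with median centring. Zp3 reversed to -0.28 with median centring, -0.026 with scale normalization, and ran from -0.019 without replicate 1 to 0.085 without replicate 3 (-0.014 without replicate 2). With median centring the median of the 7254 tested genes was -0.39, against -0.01 in the main processing. With the tested genes thus shifted below 0, 1047 genes (5 higher, 1042 lower) and 1140 probes passed an adjusted p of 0.05. In the main processing 0 genes and 0 probes passed, and the part of the shift in these counts was not tested. Relative to the median of -0.39, Gdf9 was at 0.51, Oosp1 at 0.83 and Kit at -0.21. The tested probes of the oocyte genes at an unadjusted p under 0.05 and higher numbered 0 with median centring and 0 with scale normalization, where the ratios were larger (Oosp1 1.56, Gdf9 1.14) with unadjusted limma p-values of 0.0627 and 0.0649. Those lower numbered 1 with no background subtraction, 1 with median centring and 1 with no filter on dim probes. The causes were not tested. Leaving out 1 replicate gave 2 to 4 higher. With separate channels and no replicate block, adjusted p was 0.131 for Gdf9, 0.0973 for Oosp1 and 0.577 for Kit, and no gene passed. Bmp15, Zp3 and Kit are limited by signals near background: with a normexp offset of 0 the Kit ratio was -0.60, against -0.31 with 50.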

Other observations

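Probes near background read differently in the scanner software's own log ratio, which is given here on the log2 scale. For Bmp15 that ratio was -1.18, 1.74 and 4.46 on arrays 1, 2 and 3, against -0.59, 0.65 and 0.61 after normexp with an offset of 50. The mean of 1.67 from the scanner software therefore rested largely on array 3, where the control spot was below background. For Kit the mean was -1.23 by the scanner software and -0.31 after normexp. For Gdf9, well above background in every pool, the means were 1.17 and 0.97.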
